A study of Mus musculus with 8 samples.

Results

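Control neural stem and progenitor cells of secondary neurospheres were compared with control cells of primary neurospheres, to ask how the cells differ after 1 passage. The comparison holds 4 of the 8 arrays of the series, chosen by sample titles: 2 of SN_control (secondary spheres, passage 1, day 12) and 2 of PN_control (primary spheres, passage 0, day 6). The cells descend from mouse embryonic stem cells, and the control cells were parted from NFIA-overexpressing cells of the same mixed spheres by fluorescence-activated cell sorting, so SN_control and PN_control cells alike had grown beside NFIA cells. The other 4 arrays hold the NFIA-overexpressing cells of the same cultures, SN_NFIA (passage 1, day 12) and PN_NFIA (passage 0, day 6), with 2 arrays each. RNA was hybridised to 1-colour Agilent arrays, with 1 array per sample.

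A neurosphere is a floating colony grown from a stem or progenitor cell, and passaging means taking spheres apart and growing new ones from the single cells. Neural progenitors of the early embryo make neurons first and glia later, and cells from early spheres are known to give mostly neurons while those from passaged spheres give more glia. The transcription factor NFIA belongs to the NFI family, whose members help to open that later, glial phase.

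The labels of these samples disagree in places, and the values rest on how this was settled. In 7 of the 8 samples, the scanner file deposited under the sample's name held a different array from the one in its column of the authors' value table. Each array was therefore taken from the scanner file that its column of the value table correlated with best (lowest best correlation 0.9998, highest correlation with any other file 0.3347). With arrays taken as attached, 0 genes changed between the passages. The source names give the NFIA line for all 4 control samples, while the titles give control, and the titles were followed. All 8 arrays lay on 1 slide with 1 scan time. The SN arrays filled 1 row of the slide and the PN arrays the other, so passage, days in culture and slide row cannot be told apart. Nothing says that the arrays of a group came from separate cultures, so the p-values measure the spread between these samples, which may be technical.

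Levels are given as log2 of the background-corrected signal relative to the 75th percentile of the array, so a level of 0 is the signal at that percentile and a difference of 1 is a doubling. Spots well above background made up 45.4% and 51.1% of the SN_control arrays, against 51.6% and 54.0% of the PN_control arrays. The number of arrays limits the precision. All 7 markers of neural stem cells were well above background on every control array. So were all 6 of neurons, all 5 of the oligodendrocyte lineage and all 5 of pluripotent cells, so this does not identify the cells. Sox2, a stem cell transcription factor, stood at 2.69 and 2.62 in the SN_control arrays, against 2.83 and 2.98 in the PN_control arrays (difference -0.25 ± 0.31, SE, adjusted p = 0.764). Nes, which encodes the intermediate filament nestin, stood at 4.54 and 3.02 in the SN_control arrays, against 4.73 and 4.64 in the PN_control arrays. The brightest probe of Gfap, an astrocyte filament gene, was not well above background on any control array, while another was in SN_control 2 alone (at -3.0). Of 5 markers of blood cells and microglia, each by its brightest probe, Ptprc, Tyrobp, Aif1 and Hbb-bt were not well above background on any control array. The other, Csf1r, was on all 4, at 0.80 and 0.15 in the SN_control arrays, against 0.26 and 0.64 in the PN_control arrays. In bulk samples such as these, fewer cells of a type and less RNA per cell cannot be told apart.

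Of 13789 genes tested with limma, 100 (0.725%) rose and 19 (0.138%) fell in SN_control cells at an adjusted p under 0.05, 119 (0.863%) in all, and 1855 had an unadjusted p under 0.05. The median difference over all genes was -0.12, and scaling the arrays on brightly measured probes instead moved it to 0.03. Rising calls made up 84.0% of all calls, against 72.1% (75 rose, 29 fell) with another background correction and 73.6% (78 rose, 28 fell) with quantile normalization. The share was 91.5% (118 rose, 11 fell) with arrays scaled on bright probes and 92.3% (48 rose, 4 fell) with no filter on dim probes. The counts hung on single arrays. Without SN_control 1 the test gave 352 genes that rose and 86 that fell, and without SN_control 2 it gave 40 and 10. Without PN_control 1 it gave 8 and 0, without PN_control 2 it gave 9 and 1, and on the 4 control arrays alone, which leave little to estimate the spread from, 10 and 0. Leaving out either PN_NFIA array, which serve only to estimate the spread, gave 59 and 5. Leaving out either SN_NFIA array gave 64 and 14.

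Because the SN_control arrays differed from each other, each gene was also placed by the arrays themselves. A gene was counted as changed in both when both SN_control arrays lay at least 1 (log2) beyond both PN_control arrays on the same side, and in one only when exactly 1 of them did. By that rule 404 genes (2.93%) were higher and 178 (1.29%) lower in both SN_control arrays. Another 1004 genes (7.28%) were higher and 1044 (7.57%) lower in one only, and 38 (0.276%) went opposite ways. All 100 genes that rose and all 19 that fell in the test were changed in both arrays. The SN_control arrays differed from each other by more than 2 for 670 genes, and the PN_control arrays for 113. The plot of each secondary array against the primary mean shows both kinds of gene, the shared changes along the diagonal and a column of genes high in SN_control 2 alone.

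**Figure D1:**
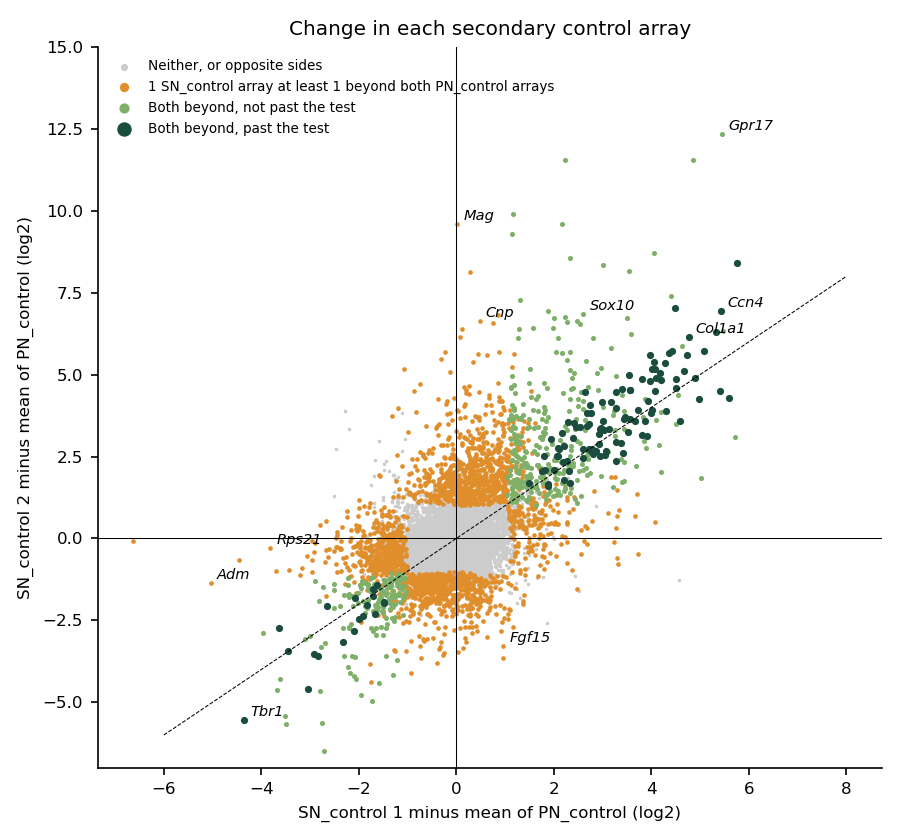
Each point is 1 of 13789 genes: the x axis is SN_control 1 and the y axis SN_control 2, each minus the mean of the PN_control arrays (log2), and the dashed line marks equal change. Mag lies near 0 on the x axis and above 8 on the y axis, while Tbr1 lies low and Ccn4 and Col1a1 high on both.

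Several of the largest rises past the test were of genes of the extracellular matrix. The largest difference over all genes, 8.9 for Gpr17 (described further on), did not pass it. Bcan, which encodes brevican, a matrix proteoglycan of brain, stood at 4.40 and 7.05 in the SN_control arrays, against -1.98 and -0.74 in the PN_control arrays (difference 7.09 ± 1.13, adjusted p = 0.04998). Col1a1, which encodes a chain of type I collagen, stood at 2.31 and 3.67 in the SN_control arrays, against -2.48 and -2.44 in the PN_control arrays (difference 5.45 ± 0.51, adjusted p = 0.0108). Tnc, which encodes the matrix glycoprotein tenascin C, stood at -0.59 and 0.28 in the SN_control arrays, against -6.19 and -4.45 in the PN_control arrays. It was not well above background in either PN_control array, so the difference is a bound, at least 18.2-fold higher in SN_control cells (adjusted p = 0.0175). Such a bound sets the mean of the higher group against the lower group raised to the dimmest signal that was well above background on each array. In each of these genes both SN_control arrays were above both PN_control arrays by more than 3.

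Other genes near the top also encode proteins outside the cell or at its surface. Ccn4, a secreted matricellular protein known as a Wnt target, stood at -0.93 and 0.57 in the SN_control arrays, against -6.22 and -6.50 in the PN_control arrays, at least 17.9-fold higher (adjusted p = 0.00951). Itga11, a collagen-binding integrin subunit, stood at 3.1 and 2.17 in the SN_control arrays, against -1.68 and -2.96 in the PN_control arrays (difference 4.95 ± 0.64, adjusted p = 0.0261). Itga11 was higher in SN_control 1 than in SN_control 2, whereas Bcan and Col1a1 were the other way round. Lrrc17, a secreted leucine-rich repeat protein, rose by 5.07 ± 0.41 (adjusted p = 0.00815), to 1.16 and 2.46 in the SN_control arrays, against -3.22 and -3.29 in the PN_control arrays. Of the 100 genes that rose, 41 were not well above background in any PN_control array, so that their differences are bounds of this kind.

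The collagen genes were the list with the most members past the test. Of 23 measured, 7 rose and 0 fell, against 0.725% and 0.138% of all genes. In 12 both SN_control arrays were above the primary range by at least 1, against 2.93% of all genes. The median difference was 2.14, against -0.12 over all genes. Without SN_control 2, without PN_control 1 or without PN_control 2, 3, 3 and 2 of them rose, and 8 rose without SN_control 1. The list's median was -0.03 with arrays taken as attached. Type VI collagen, which forms beaded filaments around cells, had 2 members among them. Col6a1 stood at 2.83 and 3.29 in the SN_control arrays, against -1.47 and -2.19 in the PN_control arrays (difference 4.89 ± 0.34, adjusted p = 0.004). Col6a2 stood at -0.43 and 0.00 in the SN_control arrays, against -4.44 and -4.57 in the PN_control arrays, at least 17.4-fold higher (adjusted p = 0.00194). Among the fibrillar collagens, Col3a1 rose by 4.06 ± 0.61, to 4.95 and 5.22 in the SN_control arrays, against 2.0 and 0.04 in the PN_control arrays (adjusted p = 0.042). Col5a1, which encodes a chain of type V collagen, stood at 2.81 and 2.92 in the SN_control arrays, against 0.73 and 0.36 in the PN_control arrays (difference 2.32 ± 0.28, adjusted p = 0.018). For these 4 genes the SN_control arrays lay closer together than to any PN_control array.

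The 200 bases before the start of Col6a1 are shown because it rose in both arrays, and those before Tbr1 and Cnp, described further on, because Tbr1 fell in both and Cnp was high in one. They are from RefSeq (GRCm38.p6), and the genes were picked after their values were seen, among those with a single start in the table. Capitals mark matches, on either strand, to 5 short motifs. The motif searched for as the TATA box, bound by the basal transcription machinery, was TATAAA. The CCAAT box, another common promoter element, was searched for as its name spells it. The letters GGGCGG stood for the GC box, a site of SP family factors. The AP-1 site, bound by Fos and Jun proteins, was searched for as TGANTCA, where N is any base. For the SOX site the letters of a core known for SOX factors, ACAAAG, were used, and no matches overlap in the sequences shown.
Col6a1 (chr10:76726045-76726244, minus strand): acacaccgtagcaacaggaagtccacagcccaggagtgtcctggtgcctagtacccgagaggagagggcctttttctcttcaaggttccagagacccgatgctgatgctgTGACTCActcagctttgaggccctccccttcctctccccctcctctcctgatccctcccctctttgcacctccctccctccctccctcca
Tbr1 (chr2:61804253-61804452, plus strand): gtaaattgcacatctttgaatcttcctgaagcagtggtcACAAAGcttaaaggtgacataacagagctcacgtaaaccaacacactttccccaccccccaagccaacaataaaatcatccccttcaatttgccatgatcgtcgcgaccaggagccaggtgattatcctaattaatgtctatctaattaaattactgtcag
Cnp (chr11:100574739-100574938, plus strand): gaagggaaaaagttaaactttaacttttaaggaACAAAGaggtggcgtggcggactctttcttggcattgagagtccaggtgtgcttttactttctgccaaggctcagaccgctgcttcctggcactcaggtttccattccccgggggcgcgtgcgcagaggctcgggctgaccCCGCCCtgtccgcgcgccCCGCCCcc
An AP-1 site was found in 9.86% of the 71 promoters matched to genes that rose, against 3.34% of the 10957 matched to all genes tested and 5.55% of all 27025 promoters in the table. A TATA box was found in 18.3% of the promoters of genes that rose, against 5.4% and 10.6%. CCAAT and GC boxes were found in 28.2% and 47.9% of them, against 32.6% and 56.0% of those of all genes tested. The SOX site was found in 68 of the 649 matched promoters of genes high in SN_control 2 alone, against 9.36% of those of all genes tested and 13.3% of the table, in 5 of the 14 matched promoters of genes that fell and in 3 of the 71 of genes that rose. These letters occur by their own frequency in any sequence, and a match is a description of the letters, not a site.

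**Figure D2:**
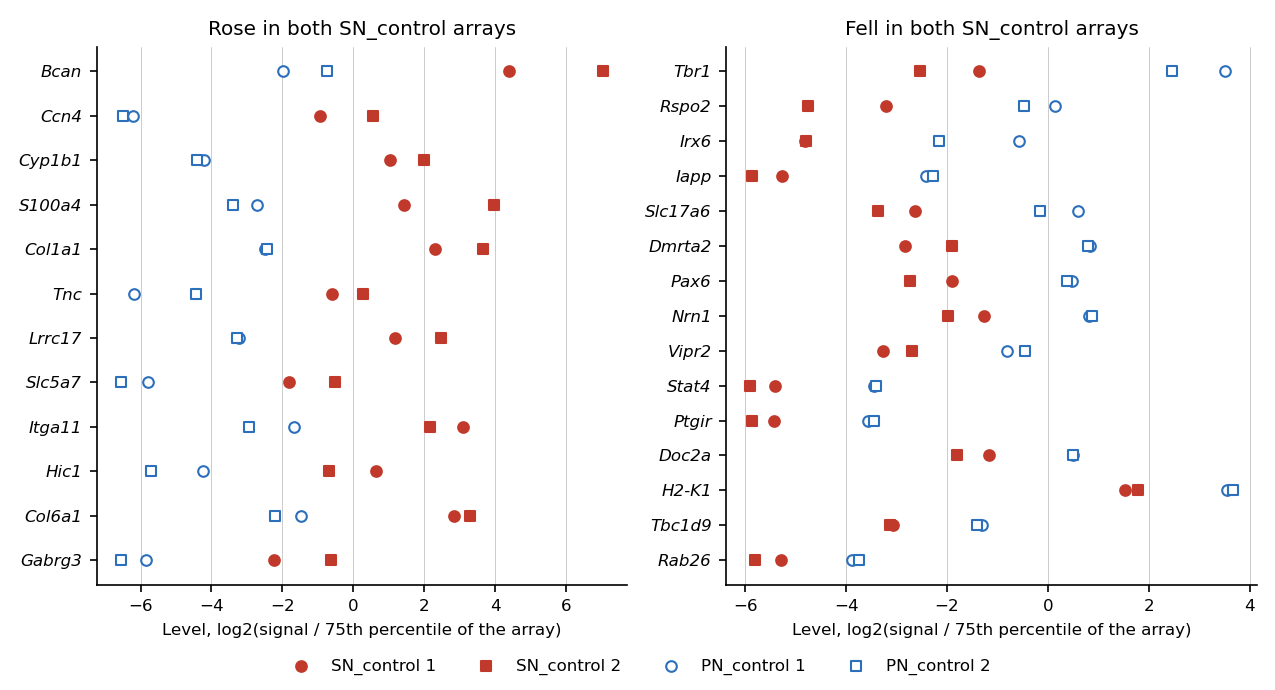
Levels (log2 of signal over the 75th percentile of the array) of 12 of the 15 called genes with the largest rise and of the 15 with the largest fall, with filled red points for the SN_control arrays and open blue points for the PN_control arrays. In each gene both SN_control arrays lie on one side of both PN_control arrays, and the gap between SN_control arrays is widest for Bcan and S100a4 on the left.

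Of 21 genes of mesenchyme, the loose connective tissue of the embryo, 4 rose and 0 fell, against 0.725% and 0.138% of all genes, and 3 collagens are on this list too. The median difference was 2.19, and 9 were higher in both SN_control arrays, against 2.93% of all genes. Without SN_control 1 the count was 7, without SN_control 2 it was 1, and without PN_control 1 and PN_control 2 it was 1 and 0. Pdgfrb, the receptor for platelet-derived growth factor on pericytes and fibroblasts, stood at 1.13 and 0.82 in the SN_control arrays, against -2.07 and -2.20 in the PN_control arrays (difference 3.11 ± 0.35, adjusted p = 0.0166). Lum, which encodes the collagen-binding proteoglycan lumican, stood at 2.20 and 2.91 in the SN_control arrays, against -0.93 and -1.21 in the PN_control arrays (difference 3.62 ± 0.41, adjusted p = 0.0172). For both genes the arrays of each group lay within 1 of each other and the groups did not overlap. Acta2, the smooth muscle actin gene, did not follow: it stood at -4.25 and -2.76 in the SN_control arrays, against -2.83 and -3.07 in the PN_control arrays. Prrx1, a mesenchymal transcription factor, stood at -0.75 and -0.31 in the SN_control arrays, against -0.72 and -1.69 in the PN_control arrays. Summed over 6 markers, the linear level of mesenchyme genes was 47.6 and 80.3 in the SN_control arrays, against 6.32 and 3.09 in the PN_control arrays, in multiples of the 75th percentile. All 6 markers were well above background in both PN_control arrays too. The part of mesenchymal cells in the rise of the matrix genes was not tested.

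Of 23 laminin and integrin genes, which link cells to the basement membrane, 2 rose and 0 fell, against 0.725% and 0.138% of all genes. In 6 both SN_control arrays were above the primary range by at least 1, against 2.93% of all genes, and the median difference was 0.55. Lama2 stood at 0.90 and 0.81 in the SN_control arrays, against -2.29 and -3.25 in the PN_control arrays (difference 3.62 ± 0.49, adjusted p = 0.0319). Lama4 was at least 6.15-fold higher, at -1.22 and -2.22 in the SN_control arrays, against -5.06 and -6.56 in the PN_control arrays (adjusted p = 0.04998). The count of 2 was 0 without SN_control 2 and without either PN_control array.

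Beyond the matrix, several regulators rose in both arrays. The NFI family had 1 of 4 members that rose in the test, against 0.725% of all genes. All 4 differences were positive (median 1.79), against 5444 over all 13789 genes. With arrays taken as attached all 4 were negative. Nfix stood at 0.13 and 0.99 in the SN_control arrays, against -5.04 and -3.05 in the PN_control arrays (difference 4.61 ± 0.70, adjusted p = 0.042). Nfic stood at 2.78 and 2.25 in the SN_control arrays, against 0.41 and 1.11 in the PN_control arrays (difference 1.76 ± 0.36, adjusted p = 0.101). Nfia itself stood at 1.00 and 0.61 in the SN_control arrays, against -1.30 and -0.30 in the PN_control arrays (difference 1.61 ± 0.48, adjusted p = 0.221). Nfib stood at 4.74 and 3.58 in the SN_control arrays, against 1.99 and 2.66 in the PN_control arrays (difference 1.83 ± 0.56, adjusted p = 0.233). In 2 of the 4 both SN_control arrays were higher by at least 1, against 2.93% of all genes. In the other 2 SN_control 1 alone was, against 178 of all 13789 genes. Only the difference of Nfix passed the test. A second Nfia probe, well above background on all 4 control arrays, had overlapping groups. It stood at -1.68 and -3.19 in the SN_control arrays, against -3.88 and -2.99 in the PN_control arrays.

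Runx1, a transcription factor known from blood and from some neurons, was at least 6.18-fold higher, at -1.36 and -2.07 in the SN_control arrays, against -6.10 and -6.56 in the PN_control arrays (adjusted p = 0.00815). Hic1, a transcriptional repressor, was at least 18.9-fold higher, at 0.63 and -0.67 in the SN_control arrays, against -4.23 and -5.71 in the PN_control arrays (adjusted p = 0.04). A second, dimmer Hic1 probe was not well above background in either group and differed by 1.14. Cdkn2b, which encodes a cyclin-dependent kinase inhibitor, was at least 2.85-fold higher, at -3.36 and -2.30 in the SN_control arrays, against -5.68 and -6.55 in the PN_control arrays (adjusted p = 0.038), and was well above background in 1 of 2 SN_control arrays. A second Cdkn2b probe was not well above background on any control array and differed by 0.61. Of 7 CDK inhibitor genes measured, 1 rose (Cdkn2b), against 0.725% of all genes, and 4 differences were negative (median -0.07). Bmp5, a secreted ligand of the BMP pathway, rose by 1.77 ± 0.24, to -1.75 and -1.96 in the SN_control arrays, against -3.60 and -3.65 in the PN_control arrays (adjusted p = 0.0342). It was the 1 gene that rose of 17 BMP and ID genes measured, of which 9 had a negative difference (median -0.04). Igf1, an insulin-like growth factor, rose by 3.55 ± 0.57, to -0.86 and 0.97 in the SN_control arrays, against -3.46 and -3.52 in the PN_control arrays (adjusted p = 0.04999). For Runx1, Hic1, Cdkn2b, Bmp5 and Igf1 the groups were separate, and the level of Cdkn2b and Runx1 was low in both groups.

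Enzymes and other genes also stood among the 15 largest rises. Cyp1b1, a cytochrome P450 that metabolises steroids and retinoids, stood at 1.03 and 1.99 in the SN_control arrays, against -4.20 and -4.40 in the PN_control arrays, at least 54.0-fold higher (adjusted p = 0.00209). S100a4, a calcium-binding protein of motile and mesenchymal cells, rose by 5.76 ± 0.85, to 1.44 and 3.97 in the SN_control arrays, against -2.72 and -3.40 in the PN_control arrays (adjusted p = 0.0407). The choline transporter gene Slc5a7 was at least 8.97-fold higher and the GABA receptor subunit gene Gabrg3 at least 7.54-fold higher (adjusted p = 0.0158 and 0.0166). A second probe of Gabrg3 was not well above background and differed by 0.94. One of Slc5a7 was well above background in 1 SN_control array only and differed by 2.87. On the NFIA arrays Slc5a7 lay between -5.608 and -3.964, on each under the dimmest signal well above background. It was not well above background in either PN_control array, so the SN_control arrays alone kept it in the test. Among 56 olfactory and vomeronasal receptor genes, 2 rose, Olfr487 and Olfr1254, against 0.725% of all genes. Both were well above background in the SN_control arrays alone of the 4 control arrays. On the PN_control, PN_NFIA and SN_NFIA arrays both lay between -6.785 and -6.069, so the SN_control arrays alone kept them in the test. Receptor genes of this family are close copies of each other, so which copy a probe read is uncertain.

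Genes that fell in both secondary arrays included several of the dorsal forebrain and its glutamatergic neurons. Tbr1, a transcription factor of early-born cortical neurons, stood at -1.37 and -2.54 in the SN_control arrays, against 3.51 and 2.47 in the PN_control arrays (difference -4.95 ± 0.60, adjusted p = 0.0196), the largest fall over all genes tested. Pax6, a transcription factor of dorsal radial glia, stood at -1.89 and -2.73 in the SN_control arrays, against 0.48 and 0.38 in the PN_control arrays (difference -2.74 ± 0.32, adjusted p = 0.0175). Dmrta2, which is needed for the cortical hem and dorsal telencephalon, stood at -2.83 and -1.91 in the SN_control arrays, against 0.84 and 0.79 in the PN_control arrays (difference -3.18 ± 0.34, adjusted p = 0.0163). Slc17a6, the vesicular glutamate transporter gene VGLUT2, stood at -2.63 and -3.37 in the SN_control arrays, against 0.60 and -0.16 in the PN_control arrays (difference -3.21 ± 0.48, adjusted p = 0.042). For these 4 genes every SN_control array was lower than every PN_control array by more than 2. Second probes of Tbr1 and Pax6 were lower too, with differences of -3.85 and -3.04, and not well above background in either SN_control array.

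Other large falls were of genes with mixed roles. Rspo2, a secreted enhancer of Wnt signalling, was at least 9.21-fold lower in SN_control cells, at -3.21 and -4.76, against 0.13 and -0.47 in the PN_control arrays (adjusted p = 0.0348). Irx6, an Iroquois transcription factor gene, was at least 4.01-fold lower, at -4.82 and -4.79 in the SN_control arrays, against -0.58 and -2.15 in the PN_control arrays (adjusted p = 0.038). Nrn1, which encodes neuritin, a neurite growth protein, fell by 2.47 ± 0.33, to -1.26 and -1.98 in the SN_control arrays, against 0.81 and 0.88 in the PN_control arrays (adjusted p = 0.0319). Doc2a, a calcium sensor of vesicle release, fell by 1.99 ± 0.32, to -1.17 and -1.81 in the SN_control arrays, against 0.50 and 0.49 in the PN_control arrays (adjusted p = 0.04998). H2-K1, a class I histocompatibility gene, fell by 1.95 ± 0.29, to 1.53 and 1.79 in the SN_control arrays, against 3.56 and 3.67 in the PN_control arrays (adjusted p = 0.04). H2-K1 shares much of its sequence with other class I genes, so its reading is uncertain.

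Several of the remaining genes of this kind were dim. Iapp, which encodes islet amyloid polypeptide, was at least 2.04-fold lower, and Tbc1d9 fell by 1.74 ± 0.26 (adjusted p = 0.0137 and 0.0421). Vipr2, a receptor for vasoactive intestinal peptide, fell by 2.36 ± 0.38, to -3.28 and -2.697 in the SN_control arrays, against -0.804 and -0.455 in the PN_control arrays (adjusted p = 0.04999). Of its other probes, one differed by -1.88 and one, not well above background, by 0.95. Stat4, Ptgir and Rab26 passed the test without a fold, as they were not well above background in either SN_control array and the bound was under 1.

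Of the 21 proneural and neurogenic genes measured, which drive the step from progenitor to neuron, 1 fell (Tbr1) and 0 rose, against 0.138% and 0.725% of all genes. Negative differences numbered 19 (median -1.01), against 8334 over all 13789 genes. In 5 both SN_control arrays were lower by at least 1, against 1.29% of all genes. In 9 SN_control 2 alone was, against 602 of all 13789 genes. The median change was -0.18 in SN_control 1 and -1.91 in SN_control 2. Eomes, a marker of intermediate progenitors of the cortex, stood at -0.52 and -0.92 in the SN_control arrays, against 1.57 and 1.17 in the PN_control arrays (difference -2.09 ± 0.40, adjusted p = 0.0824). Nhlh2, a neuronal helix-loop-helix factor, stood at -2.19 and -3.14 in the SN_control arrays, against 1.89 and 1.08 in the PN_control arrays (difference -4.15 ± 0.85, adjusted p = 0.0981). Among 24 Wnt pathway genes, 1 fell (Rspo2), 0 rose and 6 were lower in both SN_control arrays, against 0.138%, 0.725% and 1.29% of all genes. Their median difference was -0.55. Wnt7b, a ligand of the dorsal forebrain, stood at -2.42 and -2.37 in the SN_control arrays, against -0.58 and -0.03 in the PN_control arrays (difference -2.09 ± 0.35, adjusted p = 0.0554). Eomes and Nhlh2 were lower in both SN_control arrays by more than 1, and Wnt7b by more than 1 as well.

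**Figure D3:**
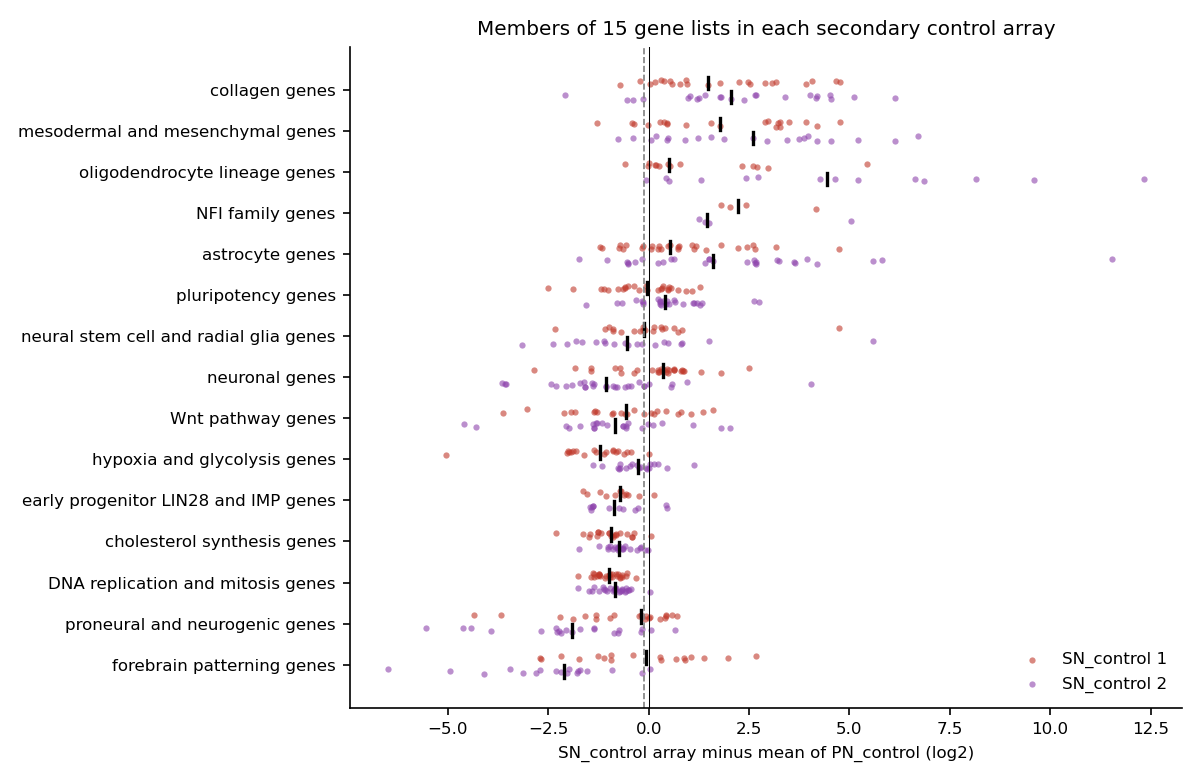
Members of 15 gene lists (points), each as SN_control 1 (red, upper) or SN_control 2 (purple, lower) minus the mean of the PN_control arrays (log2), with the median of each array as a black bar and the median difference over all genes as a dashed line. Collagen and cell cycle genes have like medians in both arrays, whereas oligodendrocyte lineage, forebrain patterning, proneural and hypoxia genes do not.

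Broad lists of growth genes were lower by a little in nearly every member, with none past the test. Over all 13789 genes, 8334 differences were negative and 1855 had an unadjusted p under 0.05. Both SN_control arrays were lower by at least 1 for 178 of all genes. All 28 DNA replication and mitosis genes measured had a negative difference (median -0.92, range -1.42 to -0.30), 20 with an unadjusted p under 0.05 and 3 lower by at least 1 in both SN_control arrays. Mki67, the proliferation marker, stood at 4.59 and 4.56 in the SN_control arrays, against 5.38 and 5.44 in the PN_control arrays (difference -0.83 ± 0.23, adjusted p = 0.19). Ccnd1, which encodes cyclin D1, stood at 2.71 and 2.58 in the SN_control arrays, against 4.23 and 3.90 in the PN_control arrays (difference -1.42 ± 0.31, adjusted p = 0.116). All 21 cholesterol synthesis genes measured were likewise negative (median -0.86), with 13 at an unadjusted p under 0.05. Nsdhl, an enzyme of the pathway, stood at 0.21 and 0.27 in the SN_control arrays, against 1.72 and 1.30 in the PN_control arrays (difference -1.26 ± 0.28, adjusted p = 0.12). Of 12 genes of the early progenitor LIN28 and IMP programme, which marks young embryonic progenitors, 11 were negative (median -0.82). Igf2bp2, an RNA-binding protein gene of that list, stood at 1.96 and 2.19 in the SN_control arrays, against 3.30 and 3.06 in the PN_control arrays (difference -1.10 ± 0.24, adjusted p = 0.116). The medians of these 3 lists were -0.76, -0.70 and -0.66 when the arrays were scaled on brightly measured probes, and 0.04, 0.23 and -0.01 with arrays taken as attached.

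Among genes changed in one secondary array alone, SN_control 2 was the array beyond the primary range for 826 of the 1004 that were higher and for 602 of the 1044 that were lower, and SN_control 1 for the other 178 and 442. Several of those higher in SN_control 2 were genes of oligodendrocytes, the myelinating cells of the brain. Mag, a myelin adhesion protein gene, stood at -3.92 in SN_control 1 and 5.65 in SN_control 2, against -3.88 and -4.00 in the PN_control arrays. Cnp, a gene of myelinating cells, stood at -1.23 in SN_control 1 and 4.93 in SN_control 2, against -1.30 and -2.11 in the PN_control arrays. In both genes SN_control 1 lay within 1 of the PN_control arrays. Adjusted p was 0.467 and 0.458, since the test takes the mean of arrays that differ.

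Of 14 oligodendrocyte lineage genes measured, 0 rose or fell in the test, with 5 at an unadjusted p under 0.05 and a median difference of 3.43. The median change was 0.50 in SN_control 1 and 4.45 in SN_control 2. In 5 both SN_control arrays were higher by at least 1, against 2.93% of all genes. In 5 SN_control 2 alone was, against 826 of all 13789 genes. Gpr17, a receptor of cells about to become oligodendrocytes, was well above background in both SN_control arrays, at 0.54 and 7.43, and in neither PN_control array, at -4.89 and -4.93. The bound, taken on the mean of SN_control arrays that lay 6.898 apart, was 321-fold, and SN_control 1 by itself does not reach it. The difference did not pass the test (8.895 ± 2.561, adjusted p = 0.209). Sox10, the lineage's central transcription factor, stood at -0.36 and 3.88 in the SN_control arrays, against -3.22 and -2.71 in the PN_control arrays (difference 4.73 ± 1.54, adjusted p = 0.255). Pdgfra, the receptor on oligodendrocyte precursors, stood at 0.67 and 2.92 in the SN_control arrays, against -1.85 and -2.74 in the PN_control arrays (difference 4.09 ± 0.93, adjusted p = 0.125). Gpr17, Sox10 and Pdgfra thus stood higher in both SN_control arrays than in either PN_control array, and highest in SN_control 2. Pdgfra is on the list of mesenchyme genes too, and Sox10 on a list of neural crest genes, so these 2 do not mark this lineage alone. Probes of Mbp, another myelin protein gene, disagreed. The brightest stood at 1.93 and 2.44 in the SN_control arrays, against 2.55 and 2.47 in the PN_control arrays. A dimmer one stood at -3.87 in SN_control 1 and 3.21 in SN_control 2, against -4.28 and -3.89 in the PN_control arrays, the pattern of Mag.

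Summed over the 5 lineage markers, the linear level was 8.98 in SN_control 1 and 354 in SN_control 2, against 8.03 and 8.08 in the PN_control arrays. It was 7.58 in SN_NFIA 1 and 66.9 in SN_NFIA 2, against 7.06 and 5.89 in the PN_NFIA arrays. Array 2 was thus the higher SN array in control and in NFIA cells. Of the 1004 genes higher in one SN_control array only, 731 had the same array number higher in SN_NFIA as in SN_control, and so did 9238 of all 13789 genes. Other genes with a wide gap were Lgi3, Elovl7, Ptpre, Pdlim2 and Cdk18, at 1.24, 3.73, 0.97, 2.93 and 4.66 in SN_control 2, against -5.04, -2.35, -5.00, -3.31 and -1.28 in SN_control 1.

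**Figure D4:**
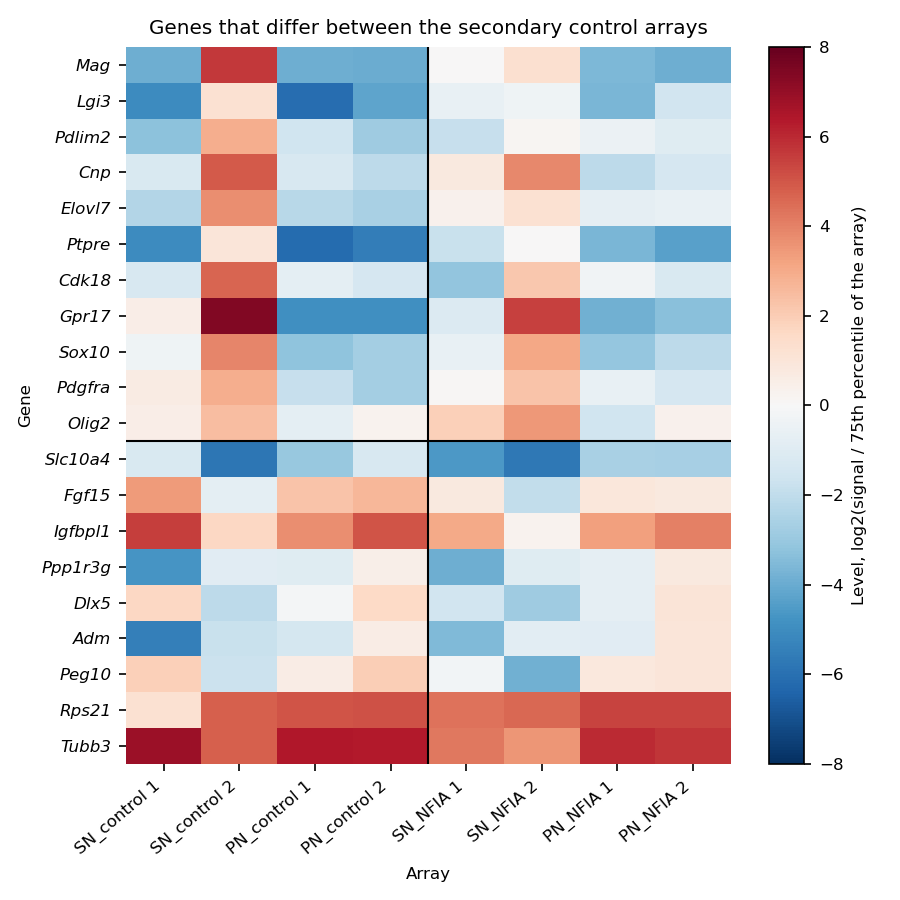
Heat map of levels (log2 of signal over the 75th percentile of the array, red high and blue low) of genes that differ between the SN_control arrays, with genes in rows and the 8 arrays in columns, control left of the line and NFIA right of it. The oligodendrocyte genes Mag, Cnp and Gpr17 are red in SN_control 2, and Cnp and Gpr17 also in SN_NFIA 2, while Adm and Rps21 are low in SN_control 1.

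SN_control 2 was also the lower array for several genes of the forebrain and of neurons. Dlx5, a transcription factor of GABA neuron precursors, stood at 1.64 in SN_control 1 and -2.08 in SN_control 2, against -0.13 and 1.59 in the PN_control arrays. Fgf15, a growth factor of the forebrain midline, stood at 3.43 in SN_control 1 and -0.81 in SN_control 2, against 2.26 and 2.68 in the PN_control arrays. Igfbpl1, a gene of newborn neurons, stood at 5.53 in SN_control 1 and 1.65 in SN_control 2, against 3.69 and 5.04 in the PN_control arrays. In these 3 genes SN_control 1 was at or above the PN_control arrays. Of 18 forebrain patterning genes measured, 0 rose or fell. In 3 both SN_control arrays were lower by at least 1, against 1.29% of all genes. In 11 SN_control 2 alone was, against 602 of all 13789 genes. The median change was -0.06 in SN_control 1 and -2.11 in SN_control 2. Without SN_control 1, 4 of the 18 fell. Tubb3, the neuronal tubulin gene, stood at 6.84 in SN_control 1 and 4.79 in SN_control 2, against 6.40 and 6.36 in the PN_control arrays. The summed level of 6 neuron markers was 177 in SN_control 1 and 69.1 in SN_control 2, against 161 and 144 in the PN_control arrays. Tubb3 is among the 6 and had the highest level of them on every control array. Of the 6, 2 were below both PN_control arrays in both SN_control arrays, and 1, Snap25, was above them. Peg10 and Slc10a4 showed the same order, at 1.90 and -1.20 in SN_control 1 and -1.74 and -5.81 in SN_control 2.

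SN_control 1, in turn, was the lower array for genes that cells switch on at low oxygen. Adm, which encodes adrenomedullin, stood at -5.45 in SN_control 1 and -1.79 in SN_control 2, against -1.39 and 0.56 in the PN_control arrays. Of 20 hypoxia and glycolysis genes measured, 0 rose or fell, with 2 at an unadjusted p under 0.05. In 9 SN_control 1 alone was lower, against 442 of all 13789 genes. The median change was -1.21 in SN_control 1 and -0.26 in SN_control 2. Ppp1r3g, a regulator of glycogen synthesis, stood at -4.74 in SN_control 1 and -0.93 in SN_control 2, against -0.99 and 0.44 in the PN_control arrays. Rps21, a ribosomal protein gene, stood at 1.23 in SN_control 1 and 4.76 in SN_control 2, against 5.0 and 5.10 in the PN_control arrays. On the other 7 arrays of the series Rps21 lay between 4.32 and 5.41.

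Genes of astrocytes and of stem cells gave few calls. Of 29 astrocyte genes measured, 1 rose (Tnc, on this list too), against 0.725% of all genes. Positive differences numbered 23 (median 1.18), against 5444 over all 13789 genes. The median change was 0.52 in SN_control 1 and 1.61 in SN_control 2. In 9 both SN_control arrays were higher by at least 1, against 2.93% of all genes, and in 0 both were lower. In 7 SN_control 2 alone was higher, against 826 of all 13789 genes. Summed over 5 astrocyte markers, the linear level was 6.04 and 48.7 in the SN_control arrays, against 1.37 and 2.4 in the PN_control arrays. Of these markers, 2 and 4 were well above background in the SN_control arrays, against 3 and 3. Sparcl1, a secreted astrocyte protein gene, stood at 4.99 and 6.61 in the SN_control arrays, against 2.53 and 2.27 in the PN_control arrays (difference 3.40 ± 0.73, adjusted p = 0.116). Of 26 pluripotency genes, 0 rose or fell, with 6 at an unadjusted p under 0.05 and a median of 0.11. Pou5f1, which encodes OCT4, stood at -1.28 and -0.24 in the SN_control arrays, against -1.23 and -1.81 in the PN_control arrays (adjusted p = 0.589). The 20 neural stem cell and radial glia genes had 1 that rose, Tnc, and 1 that fell, Pax6, against 0.725% and 0.138% of all genes. Hes5, the Notch target of progenitors, stood at 6.00 and 5.28 in the SN_control arrays, against 7.10 and 7.08 in the PN_control arrays (difference -1.45 ± 0.37, adjusted p = 0.169). The posterior gene Hoxb9 stood at -1.76 and -3.25 in the SN_control arrays, against -1.03 and -3.87 in the PN_control arrays, with overlapping groups. Olig2, a factor of oligodendrocyte precursors, stood at 0.53 and 2.46 in the SN_control arrays, against -0.77 and 0.25 in the PN_control arrays.

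The passage change in control cells was set beside that of NFIA cells, and no gene passed the test of the difference between them (0 of 13789, 0.0%; 931 at an unadjusted p under 0.05, lowest adjusted p = 0.0713). The count depended on the fit. With the replicate number as a block within each passage it was 135, although nothing says that a number marks a shared culture. Without SN_control 1 it was 30 and without SN_control 2 it was 1. In NFIA cells 75 genes (0.544%) rose and 185 (1.34%) fell in SN_NFIA relative to PN_NFIA. The 100 genes that rose in control cells had a median difference of 3.40 there and 1.41 in NFIA cells, positive in 93 of 100. The 19 that fell had a median of -2.23 in control cells and -2.0 in NFIA cells, negative in 19 of 19. The genes were chosen by the control values, so a smaller difference in the other cells says nothing of itself. Tbr1 differed by -4.95 in control cells and by -4.61 in NFIA cells, where it stood at -1.83 and -2.68 in the SN_NFIA arrays, against 2.91 and 1.81 in the PN_NFIA arrays (adjusted p = 0.0243). Nfix differed by 4.61 in control cells and by 4.12 in NFIA cells (adjusted p = 0.0436). Col1a1 stood at 1.99 and 2.34 in the SN_NFIA arrays, against -0.34 and 0.68 in the PN_NFIA arrays (difference 1.99, adjusted p = 0.0951). For Col1a1 the secondary levels were close in both cell types, and the PN_control arrays were lower than the PN_NFIA arrays.

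**Figure D5:**
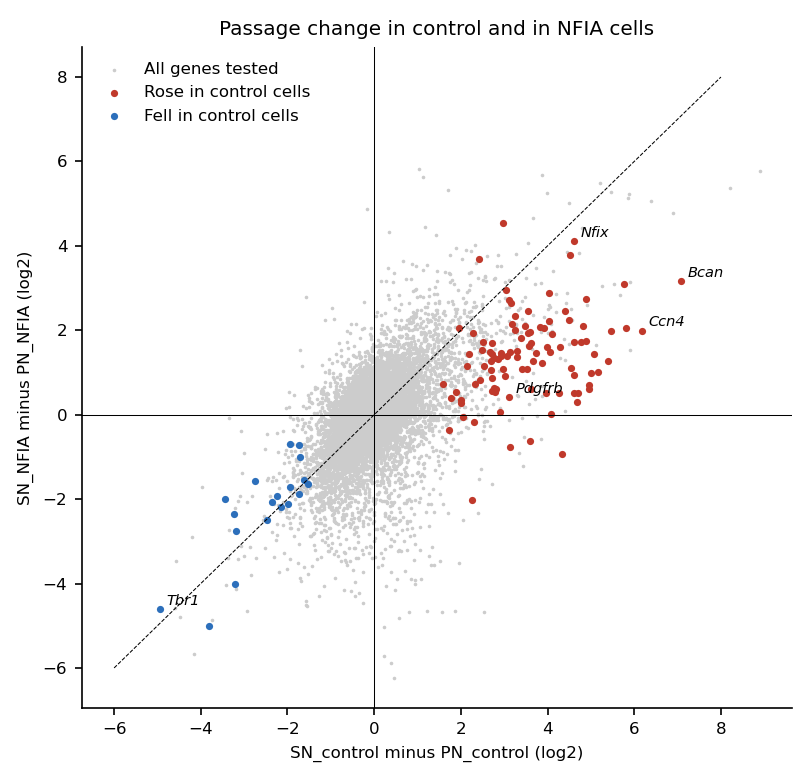
Passage difference of each gene in control cells (x axis, SN_control minus PN_control) and in NFIA cells (y axis, SN_NFIA minus PN_NFIA), both log2, with the 100 genes that rose in control cells in red, the 19 that fell in blue and equal change as a dashed line. Most red points lie under the dashed line, and Tbr1 and Nfix lie close to it.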

How the data were processed

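RNA of the 8 samples was read on 1-colour Agilent arrays. Each deposited scanner file gives a background-subtracted and spatially detrended intensity per spot, per the file headers, beside other columns that mark a spot as well above background, saturated or an outlier. Feature Extraction 10.7.3.1 is named in the submitters' processing notes, while the file headers give an earlier version. The authors' value table holds log2 values, scaled to the 75th percentile and with probe medians at 0 (largest absolute median 0.000245, as the values show), and it served to match arrays to samples and as an alternative.

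The 75th percentile of the log2 signals was subtracted from each array. Of 55681 probes, 26056 had a gene symbol through their transcript accession, and outlier flags removed 126. A probe stayed in if some group had it well above background on its 2 arrays, and the brightest stood for its gene (3644 of 13789 genes had several). A model of 4 group means over all 8 arrays was fitted with limma 3.58.1 (R 4.3.3), so the NFIA arrays share in the estimate of the spread. Calls needed a Benjamini-Hochberg adjusted p under 0.05 over all genes. On simulated arrays with 200 of 13789 genes changed in this comparison, 70% of those changed by 2 (log2) and 99% of those changed by 4 were called, with 6 false calls among 175. The simulated arrays varied independently, with the same spread in every group. In the data the SN_control arrays differed by more than 2 for 670 genes and the PN_control arrays for 113, so these rates may not hold there. The alternatives were other background corrections, scalings, filters, probe rules, array assignments and blocks, and leaving out each array. Scanner files here give no mean signal, so the alternative background correction (normexp, offset 50) used median signals.

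Members and gene lists were chosen with earlier results of these data known. Named genes are, among calls changed in both SN_control arrays, the 15 largest rises and 15 largest falls, the 8 each way with the widest gap among those changed in one only, members with the smallest p of each list (4 at most, not all of which are given), and fixed markers. Genes without an official name were counted and not named. Mbp, Acta2, Prrx1 and the blood cell markers were added after their values were seen. Some genes that the rule picks are not reported here.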

Additional observations from a re-analysis of the deposited data

How the results depend on the processing

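The count of 119 genes changed between SN_control and PN_control was 0 with arrays taken as attached and 0 with groups from the source names. In the latter setting the arrays whose source name gives the NFIA line took the place of the control arrays. Its groups are thus not those of the titles, and 2 genes passed its test of the difference between the lines. The count of 119 became 52 with no filter on dim probes and 62 with probes above background on all 4 control arrays. It was 10 on the 4 control arrays alone and 58 with array weights. Leaving out 1 array gave 8 to 438 genes, and 0 to 30 in the test of the difference between cell types. The replicate numbers are not shown to pair samples (the deviations of SN_control and PN_control correlate at -0.188, those of SN_control and SN_NFIA at 0.484 and those of PN_control and PN_NFIA at 0.445, with 2 numbers only). With a replicate block 152 genes changed (123 rose, 29 fell), and with a replicate block within passage 92 did (81 and 11) and 135 differed between cell types. A crossed pairing, added after seeing the data, gave 110 and 21. Leaving out an array of a group assumes that its lone array varies like the other groups. The cause of these shifts was not tested.

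Genes higher in both SN_control arrays (404) numbered 26 with arrays as attached, 72 by the source names, 183 with normexp, 942 without the filter, 211 with probes above background on all 4 control arrays and 144 at a step of 2. Genes lower in both (178) numbered 29, 46, 62, 87 and 24 in the same settings, apart from the missing filter. Genes higher in one only (1004) numbered 4075 without the filter and 437 at a step of 2. Genes lower in one only (1044) numbered 592 as attached, 519 with normexp and 152 at a step of 2.

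With arrays as attached the difference turned in sign for Cyp1b1 (-0.054), Tnc (-0.76), Itga11 (-0.14), Hic1 (-0.089), Col5a1 (-0.059), Nfix (-0.60), Nfia (-0.54), Nfib (-0.86), Nfic (-0.48), Bmp5 (-0.15), Lgi3 (-0.81), Tbr1 (0.10), Pax6 (0.10), Nrn1 (0.23), H2-K1 (0.26), Wnt7b (0.054), Hes5 (0.40), Ccnd1 (0.033), Nsdhl (0.32), Igf2bp2 (0.017), Ppp1r3g (0.76), Adm (0.39), Rps21 (0.093) and Acta2 (0.06). By the source names it turned for Pou5f1 (-0.35) and Hoxb9 (1.43), and for Hoxb9 also when scaled on bright probes (0.10). For Mbp it was 0.89 with the mean of its probes and 3.75 in the authors' value table. Leaving out 1 array gave ranges of -1.59 to 0.46 for Tubb3, -1.07 to 5.17 for Pdlim2, -0.24 to 5.71 for Cdk18, -3.64 to 0.96 for Slc10a4, -3.28 to 0.97 for Fgf15, -2.71 to 1.17 for Igfbpl1, -2.82 to 0.91 for Dlx5, -3.02 to 0.62 for Peg10, -1.29 to 0.19 for Acta2 and -1.47 to 1.36 for Hoxb9.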
